A study of Mus musculus with 10 samples.

Results

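The collagen genes other than Col4a1 and Col4a2 were described in maps of open chromatin of muscle stem cells from young and aged mice. Members were all protein-coding genes of the mouse build mm10 (GRCm38) whose symbol is Col, a number, the letter a and a number, and 42 of 21887 protein-coding genes met this rule. Rows of each deposited peak list that touched or overlapped were merged into open regions, and a region was counted for a collagen gene when its strongest summit lay within 10 kb of the gene's span. This gave 439 of 131656 young regions and 401 of 117284 aged regions. A region that falls within 10 kb of another gene is counted for the collagen gene too, so proximity here does not say which gene a region acts on.

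Collagens are extracellular proteins built of 3 chains wound into a triple helix. Fibrillar types form the cables of tendon and muscle connective tissue, network types form sheets such as those in basement membranes, and other types sit on fibrils, link fibrils to membranes or span the cell membrane. Muscle stem cells lie between the muscle fibre and its basement membrane, and they both touch and secrete collagens. Collagen V is known as a signal that holds these cells in quiescence through the calcitonin receptor, with Col5a1, Col5a3 and Col6a1 described as targets of Notch and its DNA-binding partner RBPJ, and collagen VI is known as a niche protein that bears on their self-renewal. Open chromatin shows where a transposase could cut DNA and is not a measure of transcription or of protein.

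Cells positive for α7-integrin and CD34 were sorted from C57BL/6 mice by flow cytometry and kept for 2 h in culture medium with serum and basic fibroblast growth factor. Prostaglandin E2 (PGE2), a lipid mediator released in injured tissue, was added at seeding, and control cells received the vehicle, 0.1% DMSO. The young group was 8 to 20 weeks of age and the aged group 20 to 25 months, and the labels name no transgene or mutation. The labels list 10 libraries, of which 4 are young (2 with PGE2, 2 with vehicle) and 6 are aged (3 with PGE2, 3 with vehicle). The values used here were 1 peak list for young cells after PGE2 and 1 for aged cells after PGE2, and the vehicle libraries were not analysed here. The comparison is therefore of age after the same treatment, and a difference in age cannot be told apart from a difference in the response to PGE2. Values per library are absent from both lists, and differences between them therefore have neither a replicate error nor a p-value. The intervals below are exact Clopper-Pearson intervals at 95% over regions. They cover the counting error over regions only and no spread between libraries. Reads amplified by PCR without molecular identifiers are also not independent molecules.

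The sort was checked on marker genes by their start regions. These overlapped a window of 1 kb on each side of a gene start, or of both span ends where no start was given. All 10 muscle stem cell markers, among them Pax7, Myf5 and Calcr, had a start region in both lists, at 26.7- to 111-fold over the caller's background (young) and 16.6- to 61.7-fold (aged). Of 10 markers of fibroblasts and fibro-adipogenic progenitors, which are the main collagen producers of muscle, 7 had a start region in both lists, 2 had one in aged cells alone (Ly6a at 2.5-fold and Mfap5 at 2.74-fold), and Pi16 had none. Dpt (129-fold young, 98.9-fold aged) and Fbn1 (54.5 and 36.3) were strong, while Pdgfra (6.21 and 6.01), Clec3b (5.46 and 3.75), Dcn (3.79 and 5.19) and Lum (2.38 and 2.55) were weak. Of the tendon markers 2 of 4 had a start region in both lists, of the endothelial markers 2 of 5, of the smooth muscle and pericyte markers 4 of 5, of the immune markers 1 of 5, of the glial markers 2 of 3 and of the chondrocyte markers 2 of 4. A start region in young cells alone was present at the endothelial marker Cdh5 (1.98-fold), the pericyte marker Rgs5 (3.21-fold) and the glial marker Sox10 (2.95-fold). The part that other cells of the sort have in the collagen regions was not tested.

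Most collagen genes had an open start in both lists and none had one in a single list. A start region was present in the young list for 34 of 42 members, against 66.3% of all protein-coding genes, and in the aged list for 34, against 63.9%. These were the same 34 members, so that 34 had one at both ages (63.5% of all genes), 0 in young cells alone (2.8%), 0 in aged cells alone (0.411%) and 8 at neither age (33.3%). Those 8 were Col6a3, Col6a4, Col9a1, Col9a3, Col10a1, Col20a1, Col22a1 and Col28a1. Col9a1, Col9a3 and Col10a1 are cartilage collagens, and Col22a1 is known from the junction of muscle and tendon. Start sites were given for 33 members, and for the other 9 both ends of the span stood in for the start. Any region within 10 kb was present for 41 of 42 members in the young list, against 78.9% of all genes, and for the same 41 in the aged list, against 77%. That left 0 members with a region in young cells alone (2.42% of all genes), 0 in aged cells alone (0.498%) and 1 with none (20.6%), while 76.5% of all genes had one at both ages. Collagen genes were longer than most, with a median span of 110 kb against 17.2 kb for all protein-coding genes, and more regions fell near each one, with a median of 8.5 young and 8 aged regions per member against 3 and 3. Per 100 kb of gene and flank they held 7.34 regions in the young list (7.35 for all genes) and 6.71 in the aged list (6.5), so the density was close to that of all genes.

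**Figure D1:**
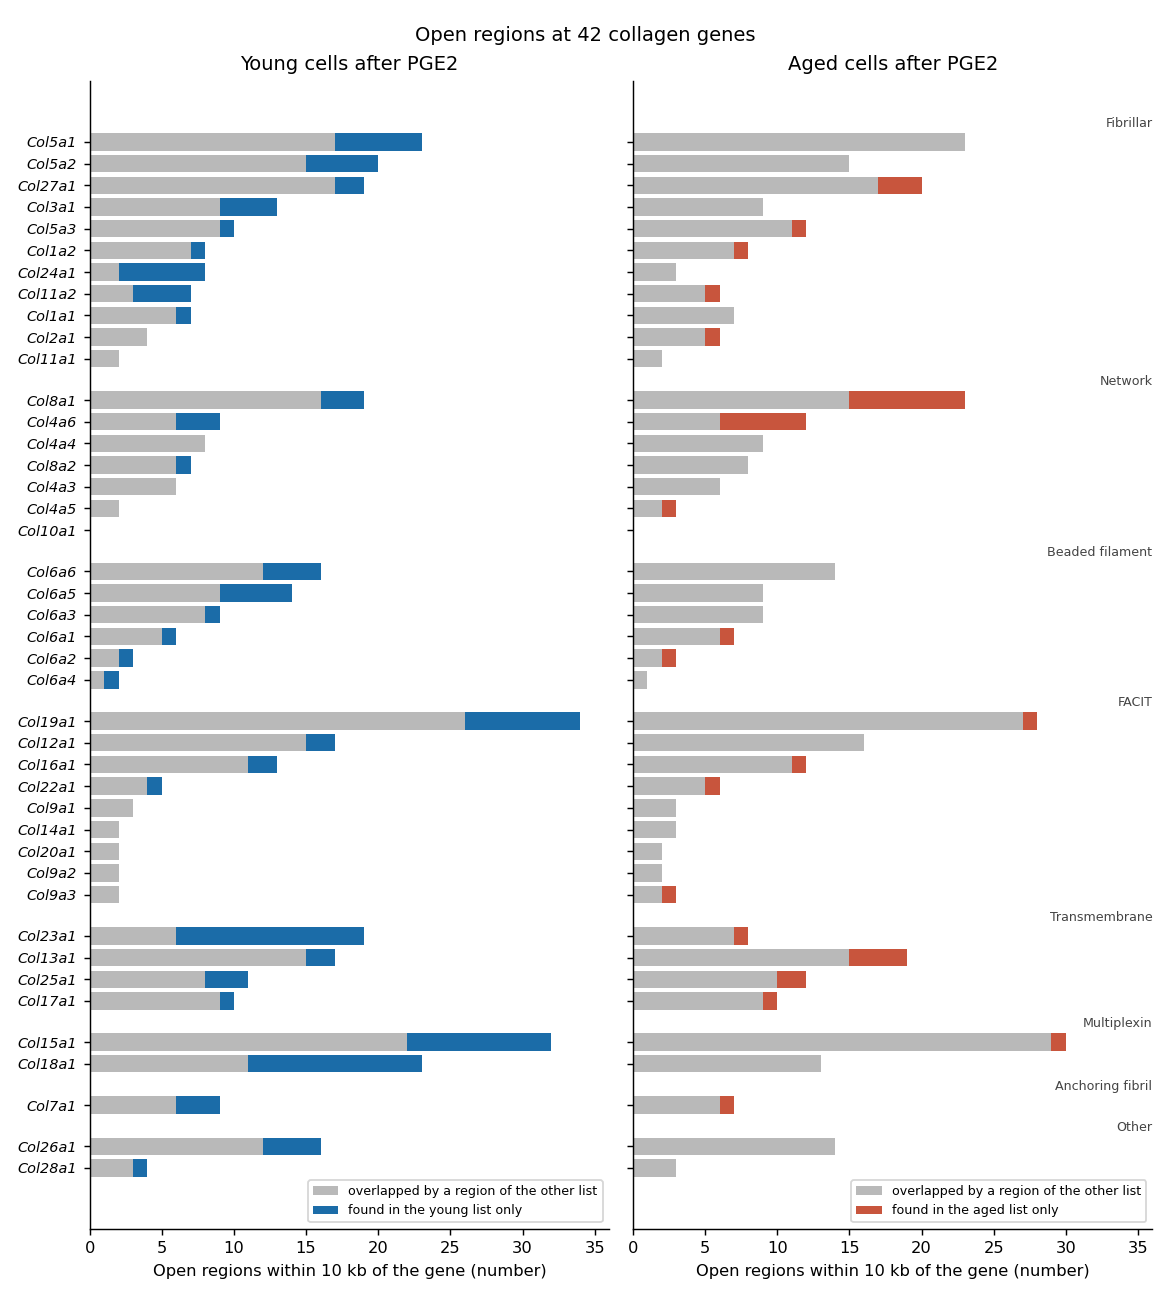
Number of open regions within 10 kb of each of the 42 collagen genes (horizontal axis) in the young list (left) and the aged list (right), with genes grouped by collagen class. Grey bars are regions overlapped by the other list and coloured bars are regions found in that list only. Col19a1 held the most young regions (34), Col15a1 the most aged regions (30), and Col10a1 none.

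Open starts of collagen genes had a lower median fold than those of all genes. In values given as young and aged below, each belongs to the list of that age. Fold over background is the deposited enrichment at the summit, as the authors' caller gave it, and it was set against other regions of the same list only. In a wide start region that summit can lie outside the start window, as at Col5a1 (aged) and Col3a1 (young). The median fold of the strongest start region was 15.8 over the 34 members of the young list with one, against 44.5 over all genes with one, and 9.68 against 29.2 in the aged list. Col12a1, which coats collagen I fibrils in tendon and muscle sheaths, had the strongest young start region by the 1 kb rule at 60.4-fold and reached 33.4-fold in the aged list. Col5a1 (48.8 in the young list, 45.0 in the aged list) and Col5a2 (44.9 and 25.4), both chains of collagen V, came next in the young list. For Col12a1 and Col5a2 no start site was given, and their values are those of a region within 1 kb of a span end. The young Col12a1 region (79716306 to 79720219) lies inside the gene and stops short of the span end at 79721141. The weakest were Col4a6 at 2.86-fold (young) and Col9a2 at 2.21-fold (aged). The strongest region of a member was its start region for 11 members of 42 in young cells and 9 in aged cells. For the others that had a region the strongest lay inside the gene or in its flanks. The same count over all genes was not taken, and nothing is read from these numbers.

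**Figure D2:**
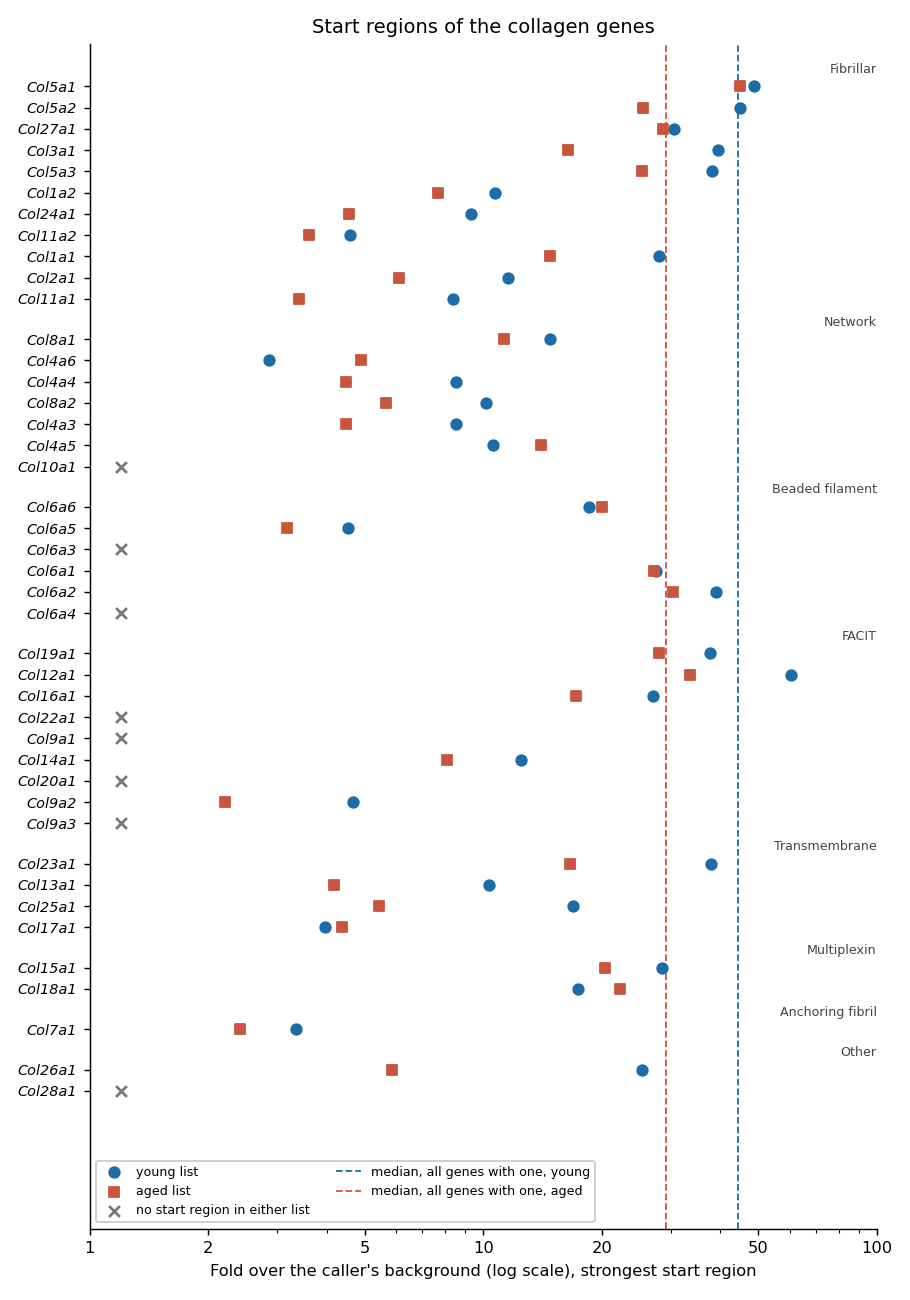
Fold over the caller's background (log axis) of the strongest start region of each collagen gene, read at that region's summit, in the young list (circles) and the aged list (squares). Crosses mark the 8 members with no start region in either list, and dashed lines mark the medians over all protein-coding genes with a start region (44.5 young, 29.2 aged), which most members fall below.

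The 3 niche genes Col5a1, Col5a3 and Col6a1 had open starts in both lists. Together they held 39 young and 42 aged regions, of which 8 young and 2 aged regions had no overlap in the other list, where the shares near any protein-coding gene are 28.9% (young) and 9.63% (aged). The bases just before their starts follow, read 5′ to 3′ on the strand of the gene and limited to bases outside the gene span, with those of Col3a1 and Col1a2 (major fibrillar collagens with an open start) and of Col6a3 and Col10a1 (no start region in either list) for comparison. Sequences are RefSeq's on GRCm38.p6, at chr2:27886175-27886380 (plus strand) for Col5a1, chr9:20815118-20815317 (minus) for Col5a3, chr10:76726045-76726294 (minus) for Col6a1, chr1:45311288-45311537 (plus) for Col3a1, chr6:4505368-4505617 (plus) for Col1a2, chr1:90844002-90844221 (minus) for Col6a3 and chr10:34389731-34389980 (plus) for Col10a1. Capitals mark matches to the motifs named after the sequences.
Col5a1: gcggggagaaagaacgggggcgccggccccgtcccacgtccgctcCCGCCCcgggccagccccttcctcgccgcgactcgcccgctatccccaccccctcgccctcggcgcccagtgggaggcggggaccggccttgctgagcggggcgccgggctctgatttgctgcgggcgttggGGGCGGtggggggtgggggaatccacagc
Col5a3: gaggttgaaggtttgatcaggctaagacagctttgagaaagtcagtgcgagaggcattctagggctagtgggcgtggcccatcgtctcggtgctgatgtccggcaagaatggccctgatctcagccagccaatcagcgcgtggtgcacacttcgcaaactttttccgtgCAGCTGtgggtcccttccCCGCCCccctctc
Col6a1: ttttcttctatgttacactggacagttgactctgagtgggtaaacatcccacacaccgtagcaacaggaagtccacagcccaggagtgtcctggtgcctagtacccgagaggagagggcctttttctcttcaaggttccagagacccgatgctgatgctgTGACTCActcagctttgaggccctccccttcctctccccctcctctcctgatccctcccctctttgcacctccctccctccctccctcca
Col3a1: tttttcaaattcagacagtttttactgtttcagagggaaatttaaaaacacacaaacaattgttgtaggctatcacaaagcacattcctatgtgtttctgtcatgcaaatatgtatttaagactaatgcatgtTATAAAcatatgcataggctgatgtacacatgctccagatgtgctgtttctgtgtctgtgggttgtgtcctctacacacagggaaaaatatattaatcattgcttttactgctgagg
Col1a2: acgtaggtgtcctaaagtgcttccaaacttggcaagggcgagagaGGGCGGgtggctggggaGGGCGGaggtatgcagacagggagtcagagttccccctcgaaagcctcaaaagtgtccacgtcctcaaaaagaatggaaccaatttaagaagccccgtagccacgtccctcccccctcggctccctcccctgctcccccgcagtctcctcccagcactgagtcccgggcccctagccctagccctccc
Col6a3: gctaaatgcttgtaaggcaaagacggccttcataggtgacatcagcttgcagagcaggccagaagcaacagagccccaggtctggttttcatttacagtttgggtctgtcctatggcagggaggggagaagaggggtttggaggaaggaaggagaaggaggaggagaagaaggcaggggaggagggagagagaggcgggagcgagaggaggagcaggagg
Col10a1: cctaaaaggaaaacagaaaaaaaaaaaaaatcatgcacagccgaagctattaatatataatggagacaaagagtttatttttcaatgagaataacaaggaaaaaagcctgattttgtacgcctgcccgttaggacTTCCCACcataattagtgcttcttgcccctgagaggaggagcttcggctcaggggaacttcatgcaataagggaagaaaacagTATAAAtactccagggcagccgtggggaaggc

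Motifs were searched on both strands in the 250 bases before each start, in 36 promoter entries of collagen genes and in 21263 entries of all protein-coding genes. The GC box GGGCGG, bound by Sp1, was in 21 of 36 collagen promoters (58.3%) and 42.6% of all. It is seen on one strand or the other in the sequences of Col5a1, Col5a3 and Col1a2 above. The RBPJ motif GTGGGAA was in 2 of 36 (5.56%, with 5.26% of all), namely Col10a1, where it reads TTCCCAC above, and Col4a5. The AP-1 motif TGANTCA was in 1 of 36 (2.78%, with 6.13% of all), and that was Col6a1, where it reads TGACTCA 90 bases before the start. The E-box CAGCTG, recognised by myogenic factors, was in 6 of 36 (16.7%, with 12.1% of all), among them Col5a3 81 bases before the start. The TATA box TATAAA was in 5 of 36 (13.9%, with 11.6% of all), at 32 bases before the start in Col10a1 and at 117 in Col3a1. The cAMP response element TGACGTCA was in 0 of 36 (1.92% of all), and its shorter form TGACG was in 4 of 36 (11.1%, with 20.2% of all). The shorter form was not capitalised, the longer form contains it, and no other pair of these motifs shares its letters in full. A match describes letters in this window and is not a binding site. The median G and C content of these windows was 60.4% (range 35.2 to 76.4) over 29 entries of members with a start region, 49.2% (40.4 to 57.2) over 7 entries of members without one, and 55.6% over all promoters. Col5a1 was highest at 76.4%, and Col3a1 was lowest at 35.2% although its start was open in both lists. Col1a1, Col2a1, Col4a3, Col5a2, Col9a3, Col12a1, Col14a1, Col22a1 and Col26a1 had no entry.

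Col5a1 encodes the main chain of collagen V and lies on chromosome 2 from 27886381 to 28039510 on the plus strand. It held 23 regions in each list, with 6 young-only and 0 aged-only. Its start region was its strongest in both lists, at 48.8-fold and 5413 bp wide in the young list (27885298 to 27890710) and 45.0-fold and 4743 bp wide in the aged list (27885315 to 27890057). The young summit lay at position -140 bp from the start and the aged summit 2923 bp into the gene. These folds are therefore of different sites within the region. Inside the gene the strongest young region lay 50.4 kb from the start at 30.6-fold and its aged counterpart stood at 14.2-fold. A young region of 3081 bp at 30.1 kb (25.2-fold) faced several separate aged regions, the strongest at 16.2-fold and 21.1-fold. At 5.90 kb the region stood at 22.4-fold (young) and 18.6-fold (aged). The 6 young-only regions were narrow (161 to 339 bp) and weak (1.98- to 3.65-fold), and 4 of them had no aged region within 1 kb. Regions crowded into the part of the gene near its start, and beyond 87.6 kb of a gene of 153 kb neither list held any.

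Col5a3 encodes another chain of collagen V and lies on chromosome 9 from 20770050 to 20815117 on the minus strand. It held 10 young and 12 aged regions, with 1 found in one list only in each. The strongest region at any niche gene was at Col5a3, at 82.5-fold in the young list (20760237 to 20761607) and 79.7-fold in the aged list (20760302 to 20761463). That region lies downstream of the gene, 54146 bp from its start, and overlaps the start window of no protein-coding gene. A region 2.17 kb into the gene stood at 61.3-fold (young) and 49.3-fold (aged), above the start region itself at 38.2-fold and 25.4-fold. Further regions inside the gene at 9.71 kb (40.6-fold), 20.6 kb (34.5-fold) and 4.62 kb (24.6-fold) of the young list were each overlapped in the aged list, at 27.6-fold, 22.0-fold and 18.6-fold. The one-list regions were at 2.47-fold (young) and 2.45-fold (aged).

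Col6a1 encodes a chain of the collagen VI microfibril and lies on chromosome 10 from 76708792 to 76726044 on the minus strand. It held 6 young and 7 aged regions, with 1 found in one list only in each, at 2.11-fold and 2.40-fold. Its start region stood at 27.4-fold (young) and 27.1-fold (aged). Its other strong regions lay upstream, and the strongest in the young list was at position -9178 bp from the start, at 34.3-fold, where the aged region stood at 18.2-fold. A broad young region of 4498 bp with its summit at -7398 bp (24.3-fold) was matched by a pair of aged regions at 21.6-fold and 13.1-fold. Inside the gene 1 region was found at both ages, at 9.20-fold (young) and 5-fold (aged).

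**Figure D3:**
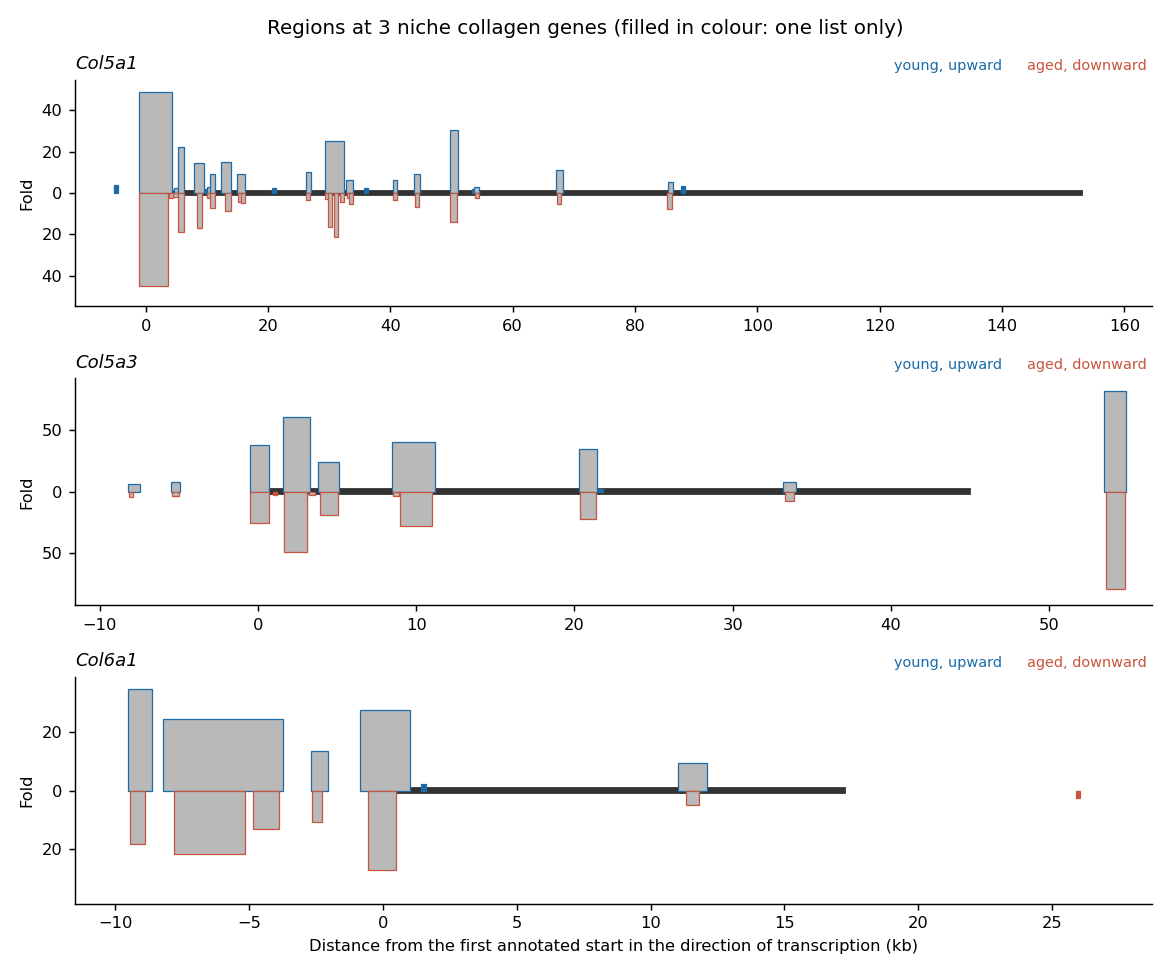
Open regions around Col5a1, Col5a3 and Col6a1 by distance from the first annotated start in the direction of transcription (kb), with the gene span as a dark bar. Bars show each region's width (narrow ones widened to stay visible) and its fold over background, upward for the young list and downward for the aged list; coloured fill marks regions found in one list only. All coloured bars are short (at most 3.65-fold), and the tallest bar is the downstream region of Col5a3 (82.5-fold young).

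The other beaded filament genes, whose chains assemble with the Col6a1 chain, differed in their starts. Col6a2 had a start region at 39.1-fold (young) and 30.3-fold (aged) and only 3 regions in each. Col6a3, which encodes the largest chain of the same trimer, had no start region in either list, and its strongest region lay 5149 bp into the gene at 23.5-fold (young) and 22.4-fold (aged). The Col6a4, Col6a5 and Col6a6 genes lie next to each other on chromosome 9. Col6a6 held 16 young regions, 4 of them young-only, and 14 aged regions, and its start stood at 18.5-fold (young) and 20.0-fold (aged). Col6a5 held 14 young regions, 5 of them young-only, and 9 aged regions, with a weak start at 4.53-fold and 3.17-fold. Col6a4 was nearly bare, with 2 young regions and 1 aged region of at most 3.83-fold.

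Among the fibrillar genes all 11 had a start or end region in both lists. Col1a1 and Col1a2 encode the chains of collagen I, the main fibril protein of muscle connective tissue. Col1a1 (chromosome 11, 94936224 to 94953042) held 7 regions in each list with 1 young-only. Its strongest lay outside the span at 94927452 to 94930013, at 41.0-fold in the young list, with 29.2-fold for the aged counterpart, and the region across its lower end stood at 27.9-fold and 14.8-fold. Col1a2 (chromosome 6, 4505618 to 4541543, plus strand) held 8 regions in each list with 1 one-list region in each. Its start was weak, at 10.7-fold (young) and 7.69-fold (aged), and its strongest region lay 1905 bp into the gene at 35.0-fold, with an aged counterpart at 21.5-fold.

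Col3a1, which encodes collagen III of fine reticular fibres (chromosome 1, 45311538 to 45349706, plus strand), held 13 young and 9 aged regions, with 4 young-only regions of 2.42- to 3.26-fold and 0 aged-only. The young start region was 4048 bp wide at 39.4-fold, with its summit 2607 bp into the gene. Across the same stretch the aged list held separate regions at 16.4-fold, 21.0-fold and 24.1-fold. Their summits lay 0.097, 1.615 and 2.61 kb into the gene, so the aged region at the young summit was the one at 24.1-fold. A region 44603 bp from the start, beyond the end of the gene, stood at 38.5-fold (young) and 32.1-fold (aged). Young regions that overlapped 2 or more aged ones, as at the Col3a1 start, made up 8.66% of young collagen regions. The share near any protein-coding gene was 8.48%. Col27a1, a fibrillar collagen of cartilage and other tissues, reached 58.7-fold (young) and 50.1-fold (aged) inside the gene and held 3 aged-only regions of 20. Col24a1, a minor fibrillar collagen, had 6 young-only regions of 8 and no region of 10-fold or more in either list.

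Regions found in one list only were counted as those with no overlap of at least 1 bp in the other list. In the young list 112 of 439 collagen regions (25.5%, interval 21.5 to 29.9) were young-only, against 28.9% of regions near any protein-coding gene. In the aged list 37 of 401 (9.23%, 6.58 to 12.5) were aged-only, against 9.63%. Both shares of the collagen genes thus lay close to those of all genes. With no region of the other list within 1 kb, the counts were 69 (15.7%, against 18.8%) and 16 (3.99%, against 4.72%). One-list regions were weak and narrow. Their median fold was 2.69 and median width 222 bp in the young list, against 8.36-fold and 650 bp for collagen regions with an overlap, and 2.45-fold and 190 bp in the aged list, against 5.02-fold and 441.5 bp. The strongest one-list region was at 6.21-fold (young) and 6.58-fold (aged).

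At 10-fold or more there were 141 young regions (32.1%, against 30.5% of regions near any gene) and 102 aged regions (25.4%, against 27.2%). Of these, 0 young and 0 aged regions were found in one list only, which allows shares of up to 2.13% and 2.94%. Near any protein-coding gene the same counts were 21 of 28861 young and 2 of 22760 aged regions, so strong regions had an overlap almost throughout both lists. Of the 42 members, 34 had a young region of 10-fold or more and 32 an aged one. The same count over all genes was not taken, and members hold more regions each than most genes. Among the strongest 10% of all regions of its list by significance, collagen regions had a lower share than regions near any gene, with 39 of 439 for young cells (8.88%, against 11.8%) and 28 of 401 for aged cells (6.98%, against 11.6%). No interval was taken for these shares. Regions at starts or ends made up 40 of 439 young and 50 of 401 aged collagen regions. Near any gene they made up 16619 of 94615 and 17168 of 83698. The part that this has in the lower shares was not tested.

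Most collagen regions lay away from any start, as did most regions near any protein-coding gene (77996 of 94615 young and 66530 of 83698 aged). In the young list 40 regions were at a start or end of a member, 8 at the start or end of another protein-coding gene and 391 (89.1%) at neither, of which 321 were inside the gene's span. In the aged list the counts were 50, 8 and 343 (85.5%), with 281 inside the span. One-list regions made up 109 of the 391 young regions away from starts (27.9%, interval 23.5 to 32.6) and 33 of the 343 aged ones (9.62%, 6.72 to 13.2), where all genes had 32.6% and 11.3%. At starts or ends they made up 3 of 40 young regions (7.5%, 1.57 to 20.4) and 4 of 50 aged ones (8%, 2.22 to 19.2), where all genes had 11.3% and 3.01%. For 6 members the strongest region was at another gene's start, namely Col4a3 (at Mff), Col7a1 (Pfkfb4), Col8a2 (Adprhl2), Col9a3 (Ogfr), Col11a2 (Slc39a7 and Rxrb) and Col23a1 (Phykpl), and the values of those regions are not particular to the collagen. Among the 33 members with a strand, the first of 5 equal parts of the gene held 30.7% of young regions inside the span (29.6% for all genes) and 34.7% of aged ones (31.5%).

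One or more young-only regions were found at 31 members (73.8%, with 53.0% of all protein-coding genes) and aged-only regions at 20 (47.6%, with 22.0%). Young-only regions outnumbered aged-only ones at 21 members (50%, with 45.9% of all genes), aged-only ones were more at 7 (16.7%, with 8.13%), and the numbers were equal at 14 (33.3%, with 46.0%). The total number of regions was higher in the young list at 16 members (38.1%, with 38.4%), higher in the aged list at 14 (33.3%, with 17.6%) and equal at 12 (28.6%, with 44.1%). These shares are not like for like, since members are longer and hold more regions each than most genes, and nothing is read from their difference. By class, young-only shares were 30 of 121 for fibrillar genes (24.8%, interval 17.4 to 33.5), 13 of 50 for beaded filament genes (26%, 14.6 to 40.3), 13 of 79 for the fibril-associated collagens with interrupted helices, or FACITs (16.5%, 9.06 to 26.5), and 19 of 57 for transmembrane genes (33.3%, 21.4 to 47.1). Aged-only shares in the same classes were 7 of 111 (6.31%), 2 of 43 (4.65%), 4 of 74 (5.41%) and 8 of 49 (16.3%). Regions near any protein-coding gene had 28.9% young-only and 9.63% aged-only. The intervals of these classes held those shares, except for the young-only share of the FACITs. The classes were not tested against each other.

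Network collagens were the class with more aged-only than young-only regions. Of their 57 aged regions 14 were aged-only (24.6%, interval 14.1 to 37.8, against 9.63% near any protein-coding gene). Of their 48 young regions 7 were young-only (14.6%, 6.07 to 27.8, against 28.9%). All 14 lay at Col8a1 and Col4a6. Col8a1, a short-chain collagen of vessel walls and of the cornea (chromosome 16, 57624256 to 57754737, minus strand), held 23 aged regions with 8 aged-only (2.16- to 4.13-fold) and 19 young regions with 3 young-only. Its strongest region, 82906 bp into the gene, was in both lists at 31.1-fold and 26.8-fold, above its start at 14.8-fold and 11.3-fold. Col4a6, a basement membrane chain of the X chromosome (141165403 to 141474095, minus strand), held 12 aged regions with 6 aged-only and 9 young regions with 3 young-only. Its start stood at 2.86-fold (young) and 4.90-fold (aged), and its strongest region, in both lists, at 18.7-fold and 15.0-fold. One of its aged-only regions, at 141452381 to 141453021, was the strongest one-list region of any member at 6.58-fold. The strongest young-only region of any member, at 6.21-fold, was at Col4a6 too. With no region of the other list within 1 kb, aged-only and young-only counts were 2 and 2 at Col4a6 and 6 and 2 at Col8a1. Col4a5 lies 1274 bp from Col4a6 in the opposite direction, and 1 of these aged-only regions fell within 10 kb of both genes. Col4a3 and Col4a4, which share a start region at 8.54-fold (young) and 4.47-fold (aged), had 0 one-list regions in either list. Over the whole lists the X chromosome had one-list shares near those of the autosomes, at 25.9% against 28.3% (young) and 9.84% against 10.7% (aged).

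Multiplexins, the basement membrane collagens XV and XVIII, stood at the other end, with 22 of 55 young regions young-only (40%, interval 27.0 to 54.1) and 1 of 43 aged regions aged-only (2.33%, 0.0589 to 12.3). Both intervals held the shares near any protein-coding gene (28.9% and 9.63%). Col18a1, whose C-terminal fragment is endostatin (chromosome 10, 77052178 to 77166530, minus strand), held 23 young regions with 12 young-only (2.07- to 4.36-fold, 10 of them with no aged region within 1 kb) and 13 aged regions with 0 aged-only. Its strongest region was in both lists, at 55.9-fold (young) and 38.3-fold (aged), above its start at 17.4-fold and 22.3-fold. Col15a1 (chromosome 4, 47207655 to 47313167, plus strand) held 32 young regions with 10 young-only and 30 aged regions with 1 aged-only. Its strongest region, 86071 bp into the gene, stood at 59.3-fold and 55.5-fold, above its start at 28.4-fold and 20.3-fold.

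**Figure D4:**
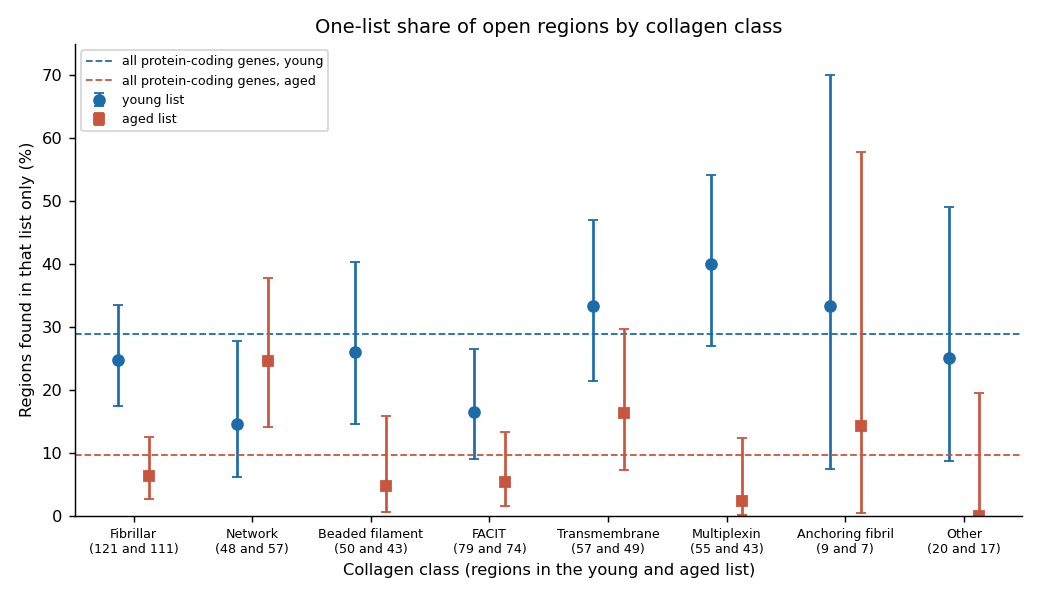
Share of open regions found in one list only (vertical axis, percent) for each collagen class in the young list (circles) and the aged list (squares), with exact 95% binomial intervals over regions. Numbers under each class are its regions in the young and aged list, and dashed lines are the shares over all protein-coding genes (28.9% and 9.63%). Network collagens have the highest aged-only share of the classes with more than 10 regions (24.6%) and multiplexins the highest young-only share of them (40%).

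Col23a1, a transmembrane collagen (chromosome 11, 51289679 to 51583925, plus strand), had the most young-only regions of any member, 13 of 19 at 1.80- to 4.71-fold, against 1 aged-only of 8. Its start stood at 37.9-fold (young) and 16.6-fold (aged), and a region 249888 bp into the gene at 33.2-fold and 22.4-fold. Its strongest region of 74.6-fold and 45.9-fold was at the start of Phykpl. Col13a1, a transmembrane collagen of the neuromuscular junction (chromosome 10, 61838234 to 61979206, minus strand), held 4 aged-only regions of 19 and 2 young-only of 17, with a start at 10.3-fold (young) and 4.18-fold (aged). Its strongest region was at 61943157 to 61944126 in young cells (17.6-fold) and at another place, 61865944 to 61866664, in aged cells (12.1-fold). Each of these regions was overlapped by a region of the other list. Col25a1 is a transmembrane collagen of developing muscle, where motor axons need it. It held 3 young-only regions of 11 and 2 aged-only of 12, and its start stood at 16.9-fold and 5.43-fold.

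**Figure D5:**
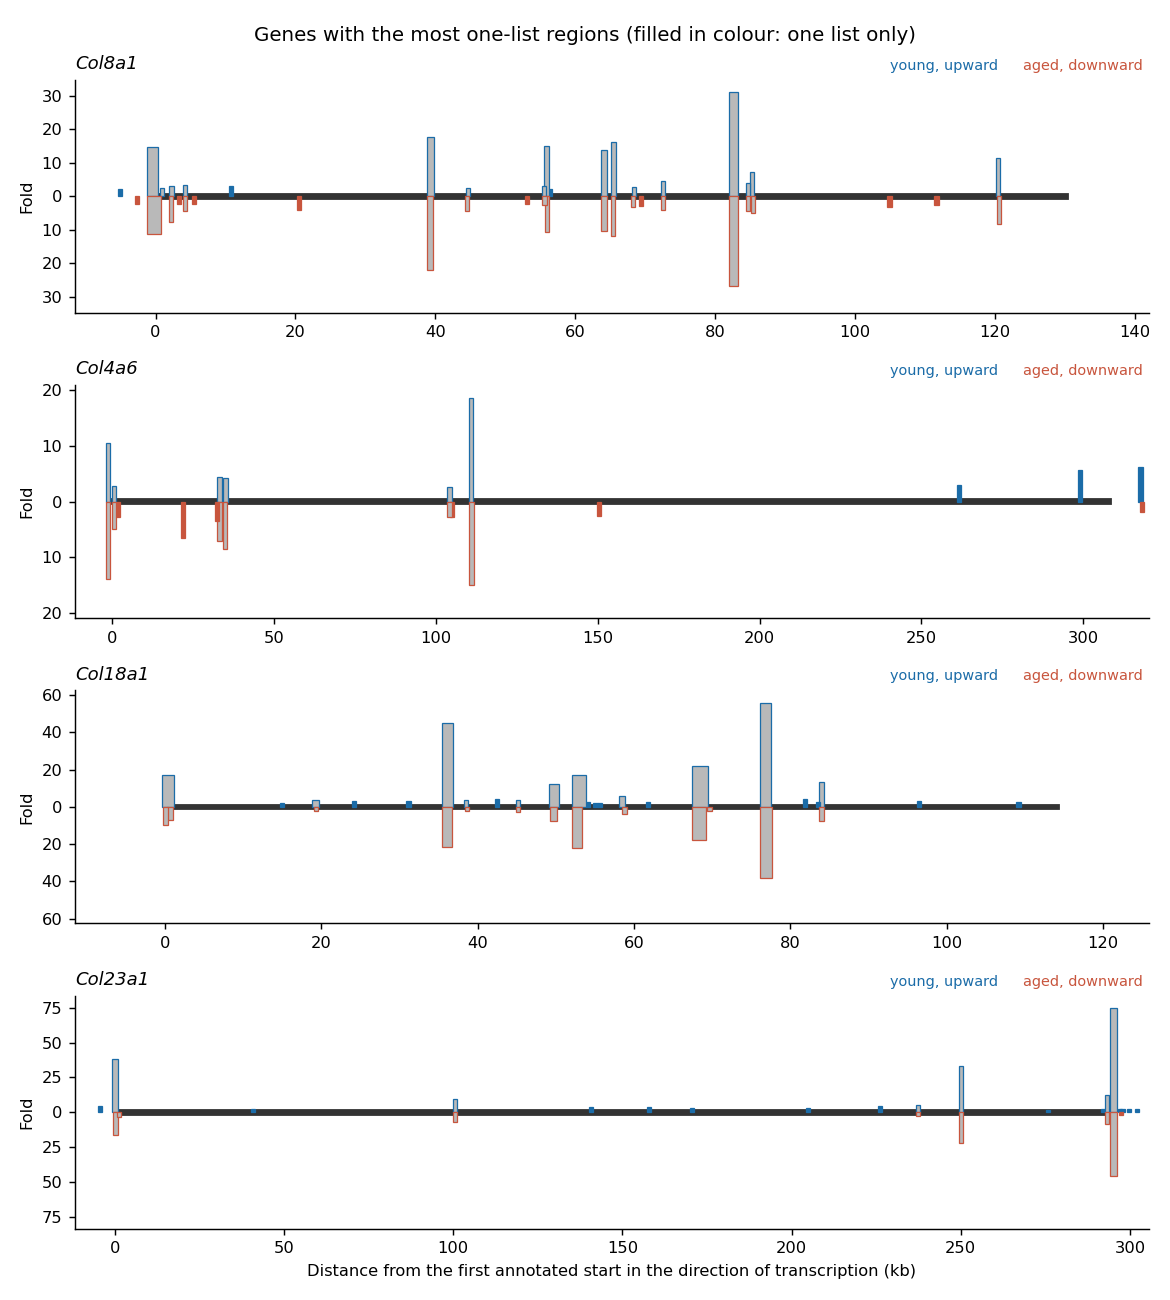
Open regions around Col8a1, Col4a6, Col18a1 and Col23a1 by distance from the first annotated start (kb), drawn as in the map of the niche genes. Col8a1 and Col4a6 carry coloured bars mainly below the line (8 and 6 aged-only regions) and Col18a1 and Col23a1 mainly above it (12 and 13 young-only regions), none of them above 6.58-fold.

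Among the FACITs, Col19a1, a minor collagen made in developing muscle (chromosome 1, 24257683 to 24587922, minus strand), held the most regions of any member in the young list, 34 with 8 young-only, and 28 in the aged list with 1 aged-only. Its start stood at 37.8-fold and 27.9-fold, and a region 116116 bp into the gene at 46.4-fold and 37.0-fold. Col12a1 (chromosome 9, 79598987 to 79721141) held 17 young regions with 2 young-only and 16 aged regions with 0 aged-only, 8 and 7 of them at 10-fold or more. Col16a1 reached 45.7-fold (young) and 26.4-fold (aged). The cartilage FACIT genes Col9a1, Col9a2 and Col9a3 and the genes Col14a1 and Col20a1 held 2 or 3 regions each in either list, with 1 one-list region among them all (Col9a3, aged list).

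Of the last classes, Col7a1, the anchoring fibril collagen of skin (chromosome 9, 108953586 to 108984875, plus strand), held 9 young regions with 3 young-only and 7 aged regions with 1 aged-only. Its start was weak at 3.35-fold and 2.40-fold. The class of other collagens held Col26a1 and Col28a1. Col26a1 (chromosome 5, 136741759 to 136883376) held 16 young regions with 4 young-only and 14 aged regions with 0 aged-only, and the region at its span end stood at 25.3-fold (young) and 5.86-fold (aged). Col28a1 held 4 and 3 regions and no start region.

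Most genes that make, cut, bind and remodel collagen were open at their starts. Of 46 such genes, 39 had a start region at both ages (63.5% of all genes), 1 in young cells alone (2.8%), 0 in aged cells alone (0.411%) and 6 at neither age (33.3%). Hydroxylases, chaperones and glycosyltransferases, which modify and fold the chains in the cell, had one in both lists for 15 of 16, and the remaining 1 was P4ha3, a prolyl hydroxylase subunit, at 1.94-fold in the young list. Processing and crosslinking enzymes had one in both lists for 11 of 12, receptors for 8 of 10 and degradation genes for 5 of 8. The strongest young starts were those of Colgalt1, a collagen galactosyltransferase (139-fold, aged 89.5-fold), Itgb1, the shared chain of the collagen-binding integrins (130-fold, aged 77.7-fold), Loxl3, a lysyl oxidase (109.7-fold, aged 61.5-fold, at a span end because no start site was given), and P4ha1, the main prolyl hydroxylase subunit (102-fold, aged 75.8-fold). Those with none were the crosslinker Loxl2, the platelet and immune receptors Gp6 and Lair1, the proteinases Mmp9 and Mmp13 and the osteoclast protease Ctsk. The list was drawn up from known function with earlier results of these data in view, and its count was not tested.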

How the data were processed

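Chromatin was cut and tagged with a transposase, and the submitters' processing notes name Bowtie2 and the builds mm10 and GRCm38. For each age after PGE2 the authors deposited a single narrowPeak table, with 265507 rows for young and 215838 for aged cells, in the layout that MACS writes. How the caller was run, which libraries were pooled, how duplicates were treated and whether read ends were shifted is not given in the sources used here. Each summit carries a fold ratio over background and a −log10 q-value, both deposited by the authors and both describing that peak. Sequencing depth per library is unknown.

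Rows that touched or overlapped were merged, keeping the summit with the highest −log10 q. Gene spans were those of a RefSeq table of GRCm38.p6, and start sites (17492 genes, 33 of them collagens) and promoter sequences were RefSeq's too, on the same build. A start region overlapped 1 kb on either side of a start, or of both span ends where no start was given. A region was shared when at least 1 bp was overlapped in the other list. A 0 count was taken to allow 3 counts. Counting was tested on simulated data. No test between the ages was possible with 1 list per age, and the lists were compared by counts.

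All members were counted. Full values were given for Col5a1, Col5a3, Col6a1, Col1a1, Col1a2 and Col3a1, in each class for the member with the most young regions and the strongest young start, for the 3 members with the most one-list regions of each list and for members without a region. Other members named were chosen after their values were seen. The members and lists were chosen with earlier results of these data known. Python 3.11.15, pandas 2.3.3, NumPy 2.4.6, SciPy 1.17.1 and Matplotlib 3.10.9 were used.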

Additional observations from a re-analysis of the deposited data

How the results depend on the processing

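Of 128 values of the main counts recomputed under 13 settings, 93 stayed within 1.5 times the reported count or within its interval, and 35 moved. Of 156 values of single genes and classes recomputed under 4 of these settings, 82 stayed within 1.5 times and 74 moved. No paired analysis was possible because the lists carry no value per library, and for the same reason no library could be left out. With rows not merged, collagen regions numbered 902 (young) and 763 (aged), and one-list shares were 14.6% and 5.24%. With the strongest 58642 regions of each list they numbered 209 and 207, and the young-only share was 16.3%. The young-only and aged-only shares were 15.7% and 3.99% when the other list had to be absent within 1 kb, 40.3% and 34.7% with a reciprocal overlap of 50%, and 34.9% and 28.7% with summits within 100 bp. Start regions in the young list only were found at 1 member with a −log10 q of at least 5, at 1 with windows of 500 bp and at 2 with equal numbers, where 2 members had one in the aged list only. Members with any region in neither list numbered 3 with equal numbers and 0 with windows of 20 kb, and those in the young list only 4 with equal numbers and 1 with summits inside the span. Of the processing and receptor genes, 1 was in the aged list only with equal numbers and 0 in the young list only at a −log10 q of at least 5.

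At Col5a1, Col5a3 and Col6a1 the regions numbered 108 young and 86 aged with rows not merged, and 27 aged with equal numbers. Their young one-list regions numbered 4 within 1 kb, 15 with the reciprocal overlap and 3 with equal numbers. Their aged one-list regions numbered 1 within 1 kb, 18 with the reciprocal overlap, 1 with equal numbers, 1 inside the span, 15 by summits and 1 with windows of 5 kb. Settings added after seeing the data left network collagens with more aged-only than young-only regions (10 and 6 at a −log10 q of at least 5, 9 and 2 with equal numbers, 21 and 12 with the reciprocal overlap, 8 and 4 within 1 kb). Young-only and aged-only counts of multiplexins were 18 and 1, 3 and 1, 33 and 21, and 15 and 0 under the same settings. Young-only regions also outnumbered aged-only ones near all protein-coding genes (28.9% and 9.63%), so that order is not particular to multiplexins. With equal numbers 3 of 25 young multiplexin regions were young-only, where all collagen regions had 16.3%. With the reciprocal overlap 21 of 43 aged multiplexin regions were aged-only, where all collagen regions had 34.7%. At Col23a1 the young-only count of 13 was 11 at the stricter q and 0 with equal numbers. With equal numbers the young-only counts fell to 1 at Col18a1 (from 12), 2 at Col15a1 (from 10), 0 at Col24a1 (from 6) and 2 at Col5a1 (from 6), and the aged-only counts to 3 at Col8a1 (from 8), 4 at Col4a6 (from 6) and 0 at Col13a1 (from 4). Depth is unknown, so weak regions missing from 1 list cannot be told apart from regions below its calling limit.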
